A study of Mus musculus with 6 samples.

Results

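The 10 marker genes of liver sinusoidal endothelium examined here were Stab1, Stab2, Lyve1, Clec4g, Fcgr2b, Oit3, Kdr, Tek, Pecam1 and Cdh5, chosen by name from the 35977 genes of the deposited count table. All 10 had a row in the table and all 10 passed the filter on low counts, which left 14374 genes. Bulk mouse liver RNA was compared between animals injected with an AAV9 vector carrying Cre recombinase under the promoter of Tnnt2, the cardiac troponin T gene (group Cre, replicates 10, 11 and 12), and animals given the same kind of vector with added miR-122 target sites (group Cre-miR122, replicates 1, 2 and 4). Both groups therefore carry a Cre vector, and no uninjected liver is analysed here. The labels state no strain, genotype, age, sex, dose or time after injection, nor that each library is a separate animal, so p-values measure the spread between these libraries, which may be technical in part. The purpose stated for the series is to see what the added sites do in liver.

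Liver sinusoids are lined by a thin, fenestrated endothelium without a continuous basement membrane. These cells clear hyaluronan, modified proteins and immune complexes from blood through scavenger and Fc receptors, among them stabilin-1 (Stab1), stabilin-2 (Stab2) and the inhibitory IgG receptor FcγRIIb (Fcgr2b). They depend on VEGF, which signals through VEGFR2 (Kdr), and like all endothelium they carry the angiopoietin receptor Tie2 (Tek) and the junction proteins PECAM-1 (Pecam1) and VE-cadherin (Cdh5). Loss of the sinusoidal character in favour of a continuous, capillary-like endothelium is known as capillarization.

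Library totals ranged from 20340994 to 20817837 counts, and the 10 markers together took 0.0355% to 0.0451% of the counts of a library. Single marker counts ran from 233 to 2458, for which counting error alone is 6.55% and 2.02% of the value. Cre replicate 10 stood apart in its sex-linked RNA, with 5 counts of Xist against 15778 to 22413 in the other libraries, while Ddx3y, on the Y chromosome, had 1676 counts there and at most 1 elsewhere. The row named Cre held 61, 50 and 37 counts in Cre replicates 10, 11 and 12, and 12, 16 and 10 in Cre-miR122 replicates 1, 2 and 4. The fold change of each marker that turns sign without this library is given both ways, in the text or among the limits. In bulk RNA, fewer endothelial cells and less RNA per cell cannot be told apart.

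The label was checked against genes of other vessels on a per-length scale, RPKM (CPM divided by the merged exon length in kilobases). Stab2 was at 14.0 ± 0.651 RPKM with Cre and 13.2 ± 1.54 with Cre-miR122 (SD, n = 3 each), and the mannose receptor gene Mrc1, a further scavenger receptor of sinusoidal endothelium and of macrophages, at 10.3 ± 1.30 and 9.60 ± 0.419 RPKM. The sinusoidal transcription factor gene Gata4 was at 5.39 ± 0.536 and 5.26 ± 1.10 RPKM. Over the list of 13 further sinusoidal genes, group means with Cre ran from 0.978 RPKM (the coagulation factor gene F8) to 19.7 RPKM (Ehd3, a gene of endocytic transport). All 10 markers averaged more RPKM in both groups than Vwf, the von Willebrand factor gene of larger vessels (1.34 ± 0.275 and 1.51 ± 0.303), and Cd34, a gene of continuous endothelium (1.64 ± 0.328 and 1.50 ± 0.504). On the same large-vessel list, however, Plvap, a gene of endothelial diaphragms (27.5 and 26.3 RPKM), and the adhesion molecule gene Vcam1 (18.5 and 18.7 RPKM) averaged more than all 10 markers. Levels per length therefore did not separate the sinusoidal list from the large-vessel list as a whole. Several markers are shared with other cells, since Pecam1 is also made by platelets and leukocytes, and Fcgr2b by B cells and macrophages.

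Promoter windows of 250 bases before to 50 bases after the start were available from RefSeq (GRCm38.p6) for 6 of the 10 markers, namely Stab1, Stab2, Clec4g, Kdr, Fcgr2b and Tek. The windows of 4 of them are shown. Stab1, Stab2 and Clec4g were picked because all were highest in Cre-miR122 replicate 1, and Tek because its groups did not overlap. For Clec4g this was nearly a tie, at 29.82 CPM against 29.77 CPM in Cre replicate 10. Each window reads 5′ to 3′ on the gene's strand, and capitals mark 3 motifs searched on both strands: AGGAAG for ETS factors such as ERG and FLI1, AGATAA for GATA factors and AACAAT for SOX factors. The windows lie at chr14:31168592-31168891 (Stab1, minus strand), chr10:87007893-87008192 (Stab2, minus strand), chr8:3720602-3720901 (Clec4g, minus strand) and chr4:94739039-94739338 (Tek, plus strand).
Stab1: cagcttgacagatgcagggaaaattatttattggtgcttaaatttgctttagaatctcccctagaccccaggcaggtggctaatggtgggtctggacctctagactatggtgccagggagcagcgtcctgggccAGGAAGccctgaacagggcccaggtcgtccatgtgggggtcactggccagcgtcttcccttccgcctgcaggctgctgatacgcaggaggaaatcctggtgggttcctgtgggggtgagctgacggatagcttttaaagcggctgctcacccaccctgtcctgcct
Stab2: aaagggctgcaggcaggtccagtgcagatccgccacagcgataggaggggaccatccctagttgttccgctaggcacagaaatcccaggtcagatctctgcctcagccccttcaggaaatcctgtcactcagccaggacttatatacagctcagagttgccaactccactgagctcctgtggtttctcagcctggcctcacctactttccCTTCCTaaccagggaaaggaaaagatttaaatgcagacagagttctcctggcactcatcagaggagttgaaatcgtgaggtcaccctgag
Clec4g: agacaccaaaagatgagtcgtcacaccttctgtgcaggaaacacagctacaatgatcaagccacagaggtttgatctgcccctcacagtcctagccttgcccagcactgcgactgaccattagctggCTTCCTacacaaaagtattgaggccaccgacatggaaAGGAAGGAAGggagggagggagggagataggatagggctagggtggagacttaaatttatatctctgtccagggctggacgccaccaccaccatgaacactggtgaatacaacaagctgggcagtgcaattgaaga
Tek: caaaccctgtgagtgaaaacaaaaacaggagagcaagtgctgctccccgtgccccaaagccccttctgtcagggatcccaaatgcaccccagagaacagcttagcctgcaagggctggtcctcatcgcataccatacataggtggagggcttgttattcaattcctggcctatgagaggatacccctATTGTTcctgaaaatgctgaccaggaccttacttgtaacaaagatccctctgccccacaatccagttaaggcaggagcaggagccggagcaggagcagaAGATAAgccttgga
The ETS motif was present 1 time each in the Stab1 and Stab2 windows and 3 times in that of Clec4g, where 2 of the matches overlap. Tek held 1 GATA and 1 SOX match and no ETS match, and the Kdr and Fcgr2b windows held none of the 3 motifs. Of 32851 promoter windows of this length, 35.4% held the ETS motif, 11.2% the GATA motif and 10.7% the SOX motif, so these matches are a description only.

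None of the 10 sinusoidal markers passed the test between the vectors. In the edgeR quasi-likelihood test 0 of 10 were called at an adjusted p under 0.05, as were 0 of all 14374 genes (0%), and DESeq2 and limma-voom also called 0 markers. At an unadjusted p under 0.05 there were 2 markers, Lyve1 and Tek, in opposite directions, against 5.41% of all genes. The log2 fold change of Cre-miR122 minus Cre was above 0 for 2 markers and below 0 for 8, with a median of -0.059, beside a median of -0.0029 and 49.4% above 0 over all genes tested. The outermost bounds of the 95% intervals were 0.687-fold (Tek) and 1.40-fold (Stab1), so smaller differences than these were not resolved for every marker.

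**Figure D1:**
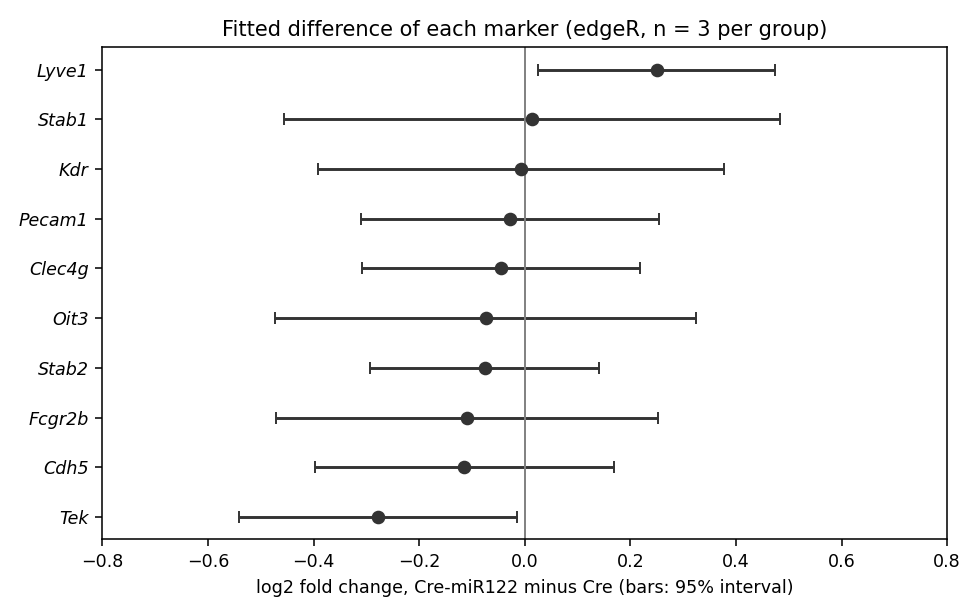
Fitted log2 fold change of each of the 10 markers, Cre-miR122 minus Cre, with its 95% interval (edgeR, n = 3 libraries per group). The intervals of 8 markers cross 0, Lyve1 lies to the right of 0 at 0.25 and Tek to the left at -0.28.

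For both scavenger receptors of the stabilin family the libraries of the 2 vectors overlapped. Stab2, the main hyaluronan clearance receptor of sinusoidal endothelium, stood at 118, 115 and 108 CPM (counts scaled to a common library size, with TMM) in Cre replicates 10, 11 and 12 and at 122, 102 and 98.9 CPM in Cre-miR122 replicates 1, 2 and 4. The groups overlapped, and the log2 fold change was -0.076 (SE 0.097, 95% interval -0.29 to 0.14, edgeR adjusted p = 0.878). Its paralog Stab1, a receptor for modified proteins that macrophages also make, was at 91.7, 87.0 and 59.3 CPM with Cre and at 106.9, 67.0 and 66.6 CPM with Cre-miR122. Stab1 varied more than Stab2 between libraries of the same group, with Cre replicate 12 lowest and Cre-miR122 replicate 1 highest. The log2 fold change of Stab1 was 0.014 (SE 0.21, 95% interval -0.46 to 0.48, edgeR adjusted p = 0.988). It became -0.25 when Cre-miR122 replicate 1 was left out, and -0.16 when Cre replicate 12 was. The ratio of Stab1 to Stab2 counts, which no scaling affects, was 0.776, 0.760 and 0.551 for Cre against 0.876, 0.657 and 0.673 for Cre-miR122, again with overlap.

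Lyve1, a hyaluronan receptor of sinusoidal and lymphatic endothelium, was the marker that lay highest with Cre-miR122 relative to Cre. It was at 12.8, 12.9 and 14.2 CPM with Cre and at 17.0, 16.0 and 14.4 CPM with Cre-miR122, so that every Cre-miR122 library lay above every Cre library. The gap between the nearest libraries, Cre replicate 12 and Cre-miR122 replicate 4, was smaller than the spread within either group. The log2 fold change was 0.25 (SE 0.10), a 1.19-fold difference, with an unadjusted p of 0.0331 and an edgeR adjusted p of 0.816. An exact two-sided permutation test of log2(CPM + 1) gave p = 0.1, the smallest that 3 against 3 libraries allow. Any gene whose groups do not overlap has this value. Leaving out each library in turn gave log2 fold changes of 0.20 to 0.31. In these fits the edgeR unadjusted p of Lyve1 stayed under 0.05 only on omission of Cre replicate 12 or Cre-miR122 replicate 4.

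The other clearance and lectin genes did not separate the vectors. Clec4g, which encodes the sinusoidal C-type lectin LSECtin, was at 29.8, 23.8 and 27.3 CPM with Cre and at 29.8, 23.6 and 24.9 CPM with Cre-miR122, a log2 difference of -0.044 (SE 0.12; edgeR adjusted p = 0.947). Fcgr2b was at 30.9, 18.5 and 25.5 CPM with Cre and at 24.7, 22.6 and 22.0 CPM with Cre-miR122. The 3 Cre libraries thus enclosed all Cre-miR122 libraries, and the log2 fold change was -0.11 (SE 0.16, edgeR adjusted p = 0.898). B cells also make Fcgr2b, and the 8 B cell markers summed to 27.8 to 36.5 CPM with Cre and 16.7 to 22.7 CPM with Cre-miR122, with 8 of 8 below 0 and none at 0 counts. Kupffer cell markers, the macrophage list, summed to 515 to 629 and 430 to 570 CPM, with 6 of 8 below 0. The part of these cells in the Fcgr2b value was not tested. Oit3, a secreted zona pellucida-domain protein gene enriched in these cells, was at 34.1, 19.8 and 22.6 CPM with Cre and at 24.7, 22.5 and 25.3 CPM with Cre-miR122, a log2 difference of -0.074 (SE 0.18; edgeR adjusted p = 0.942).

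**Figure D2:**
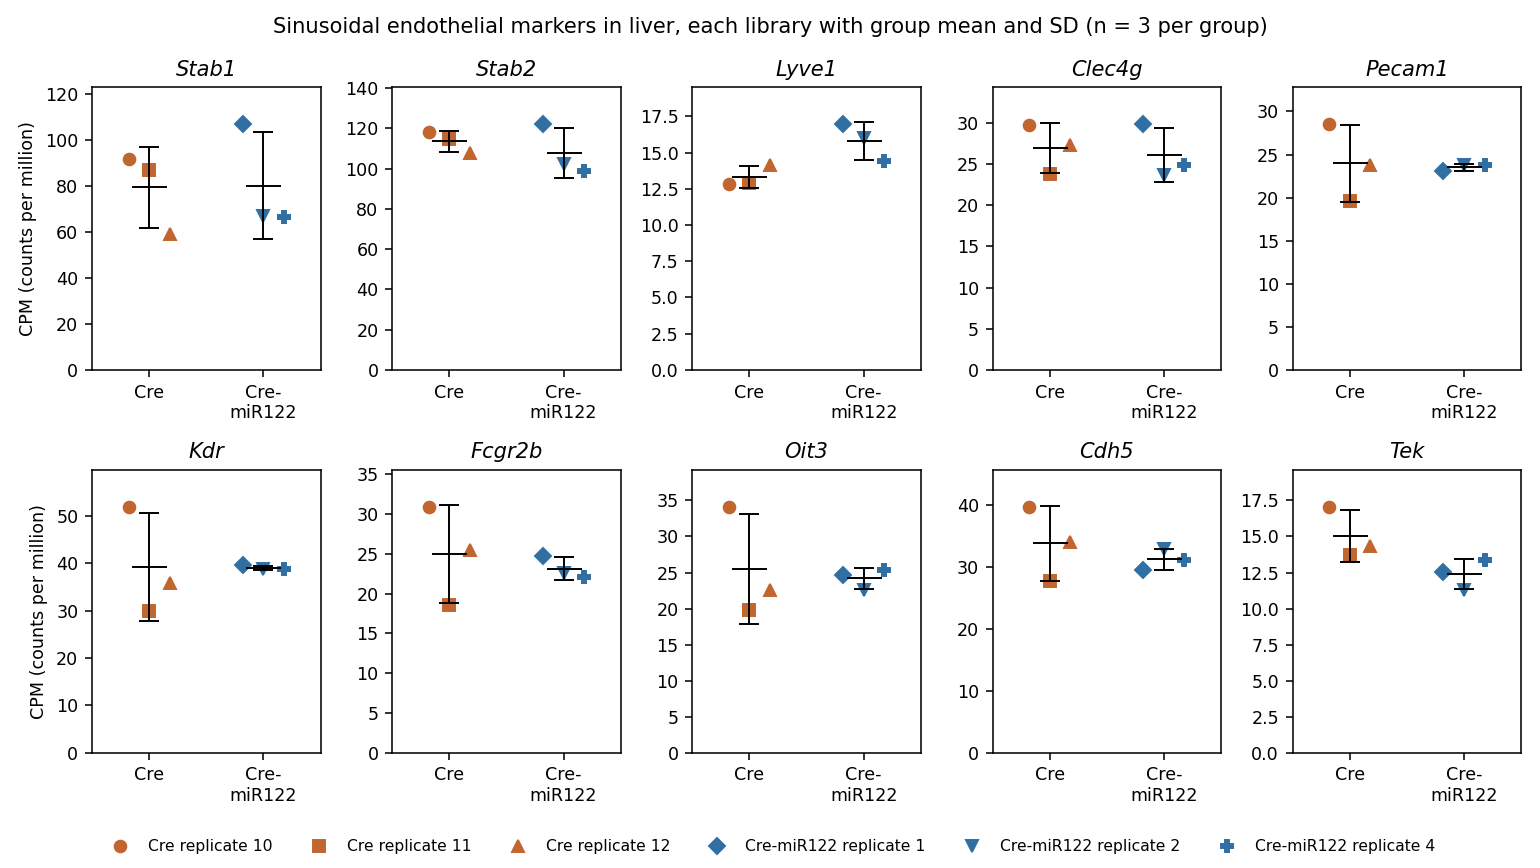
CPM of each marker in every library (points, vertical axis from 0), with the mean and SD of each group of 3 as bars. The groups overlap for 8 of the 10 genes, and Cre replicate 10 (circle) is the highest point for Kdr, Fcgr2b, Oit3, Cdh5, Pecam1 and Tek.

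Tek, the receptor of the angiopoietins, was the marker that lay lowest with Cre-miR122 relative to Cre. It was at 17.0, 13.7 and 14.4 CPM with Cre and at 12.6, 11.3 and 13.4 CPM with Cre-miR122, and the groups did not overlap. Its log2 fold change was -0.28 (SE 0.12), a ratio of 0.825, with an edgeR unadjusted p of 0.0407 and an adjusted p of 0.816. The exact two-sided permutation p of 0.1 only restates that the groups did not overlap. Without Cre replicate 10 the log2 fold change of Tek was -0.18, and its edgeR unadjusted p was no longer under 0.05. That threshold was also missed in the Cre-miR122 group when replicate 1 (-0.29) or replicate 2 (-0.21) was omitted. Lyve1 and Tek were the 2 markers of 10 whose groups did not overlap, where 11.1% of all genes tested showed this. Within libraries, the ratio of Lyve1 to Tek counts was 0.753, 0.939 and 0.986 for Cre against 1.35, 1.42 and 1.08 for Cre-miR122, a pair singled out after its values were seen.

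Kdr, the main VEGF receptor of endothelium, had nearly the same mean in both groups but a different spread. It was at 51.8, 29.9 and 35.8 CPM with Cre, where replicate 10 lay far above the others, and at 39.5, 38.8 and 38.7 CPM with Cre-miR122. The SD was 29.0% of the mean with Cre and 1.16% with Cre-miR122, the latter below the counting error of 3.54%. The difference in spread was not tested. The log2 fold change was -0.0063 (SE 0.17, edgeR adjusted p = 0.995). It became 0.25 without Cre replicate 10 (edgeR unadjusted p under 0.05, adjusted p = 0.848) and -0.17 without Cre replicate 11.

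The junction genes followed Kdr in this respect. Pecam1, an adhesion molecule of endothelial junctions, was at 28.5, 19.6 and 23.8 CPM with Cre and at 23.04, 23.7 and 23.8 CPM with Cre-miR122, a log2 difference of -0.028 (SE 0.13; edgeR adjusted p = 0.969). Cdh5, the cadherin of endothelial adherens junctions, was at 39.7, 27.7 and 34.1 CPM with Cre and at 29.5, 32.9 and 31.2 CPM with Cre-miR122, a log2 difference of -0.11 (SE 0.13; edgeR adjusted p = 0.859). For both genes the Cre-miR122 libraries lay between the lowest and the highest Cre library. Pecam1 is shared with platelets, whose 6 markers summed to 12.5 to 19.1 CPM with Cre and 13.1 to 15.7 CPM with Cre-miR122 with none at 0 counts. Their part in the Pecam1 value was not tested.

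Across the 10 markers, single libraries differed more than the vectors did. Cre replicate 10 was highest for 6 markers (Pecam1, Kdr, Fcgr2b, Oit3, Cdh5 and Tek) and Cre-miR122 replicate 1 for the other 4 (Stab1, Stab2, Clec4g and Lyve1). For Clec4g these libraries were nearly level, at 29.77 and 29.82 CPM. Cre replicate 11 was lowest for 5 markers, Pecam1, Kdr, Fcgr2b, Oit3 and Cdh5. The mean deviation over the 10 markers, on the log2(CPM + 1) scale, was 0.24, -0.16 and -0.037 in Cre replicates 10, 11 and 12 and 0.081, -0.074 and -0.059 in Cre-miR122 replicates 1, 2 and 4. The highest and the lowest library were thus both Cre libraries. Without Cre replicate 10, log2 fold changes were above 0 for 8 of 10 markers (median 0.094), and leaving out Cre replicate 11 put 8 of 10 below 0 (median -0.16). Clec4g, Pecam1, Kdr, Fcgr2b, Oit3 and Cdh5 turned from below to above 0 when Cre replicate 10 was left out.

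**Figure D3:**
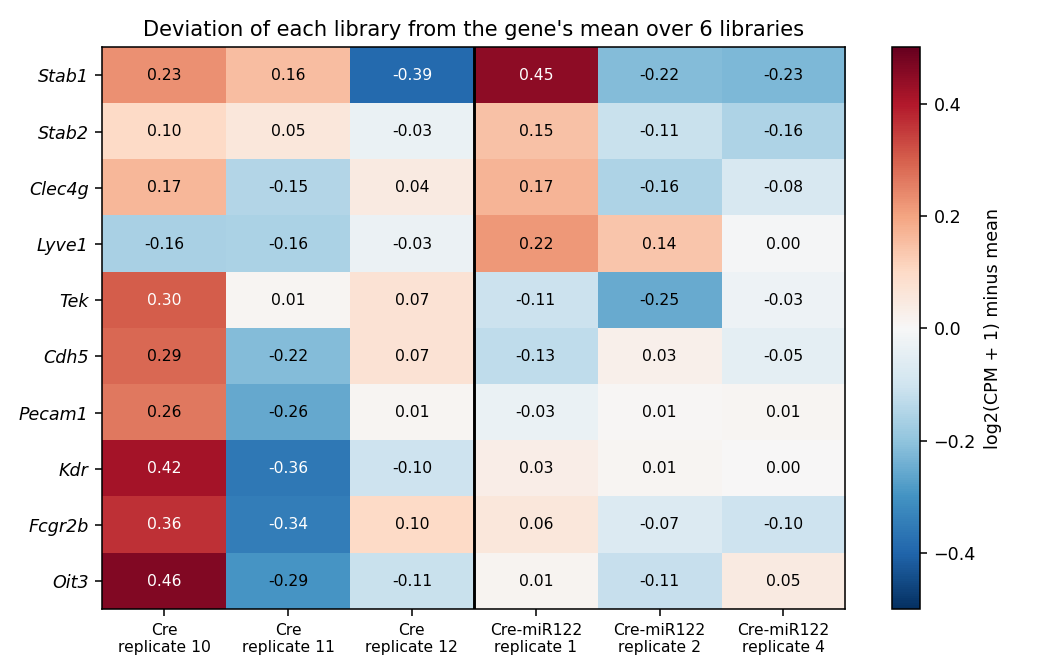
Deviation of each library (columns) from the mean of its gene over 6 libraries (rows), as log2(CPM + 1), with red above and blue below the mean. Cre replicate 10 is positive for 9 of 10 genes and Cre replicate 11 negative for 7, while Stab1 has its largest deviations, 0.45 and -0.39, in Cre-miR122 replicate 1 and Cre replicate 12.

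The profiles of the markers over the 6 libraries were alike for some pairs and not for others. Kdr, Oit3, Pecam1, Fcgr2b and Cdh5 shared Cre replicate 10 as highest and Cre replicate 11 as lowest, and among them Kdr and Oit3 were the closest pair (Pearson r = 0.964 over 6 libraries). Stab1, Stab2, Clec4g and Lyve1 shared Cre-miR122 replicate 1 as highest, Clec4g by a narrow margin, and only some pairs of these genes were otherwise alike. Stab1 and Stab2 had r = 0.868, Clec4g was nearer to Fcgr2b (0.820) than to Stab2 (0.691), and Lyve1 had r of 0.072 with Stab1, -0.074 with Stab2 and 0.090 with Clec4g. Tek shared its highest library, Cre replicate 10, with Kdr and was lowest in Cre-miR122 replicate 2. The least alike pair was Lyve1 and Tek (r = -0.773 over 6 libraries). These correlations describe 6 libraries of 2 treatments, all include Cre replicate 10, and were not computed without it. The mean profile of the markers was also set beside 13026 other genes with a mean of at least 1 CPM. The most alike were Il17rc (r = 0.988), Hscb (0.988), Epb41l2 (0.986), Pcsk5 (0.983) and Cyc1 (0.981), each over 6 libraries. They were picked for the highest r of all these genes, so the r values are a description only.

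Cre replicate 10 was also the highest library for 26 of 35 further endothelial genes, 13 enriched in sinusoidal endothelium and 22 expressed in endothelium at large. The share of all genes that were highest in this library is not given here. Its erythroid marker sum of 213 CPM was the lowest of the 6 libraries, the highest being 582 CPM in Cre replicate 12. Of other cell types in this library, the mean deviation was 0.077 for 8 hepatocyte markers, 0.0037 for 8 Kupffer cell markers, -0.22 for 5 platelet markers and 0.25 for 8 B cell markers, beside 0.24 for the pan-endothelial genes. It was 0.075 for stellate cells, 0.032 for neutrophils and monocytes, -0.013 for cholangiocytes and -0.086 for T and NK cells. In Cre replicates 11 and 12 the B cell markers were at 0.39 and 0.11, and the pan-endothelial genes at -0.066 and -0.040. Cre replicate 10 is the library with male sex-linked RNA, and since no other library was of that kind, sex and library cannot be told apart.

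Per length, the markers spanned a range from 15.5 to 2.91 RPKM in the mean of 6 libraries. Fcgr2b stood highest, followed by Stab2 (13.6), Stab1 (9.94), Oit3 (9.14), Clec4g (8.98), Cdh5 (8.05), Kdr (7.14), Pecam1 (6.10) and Lyve1 (5.58), with Tek lowest. All neighbours in this order overlapped in their range over the libraries except Lyve1 and Tek, where Lyve1 was 1.92-fold higher. Within each library, Stab2 was above Stab1, Cdh5 above Kdr and Kdr above Pecam1 in 6 of 6 libraries. The order was less settled for Fcgr2b over Stab2 and Clec4g over Cdh5 (5 of 6 libraries each), Pecam1 over Lyve1 (4 of 6), and Stab1 over Oit3 and Oit3 over Clec4g (3 of 6 each). The lengths are merged exons of all isoforms in the table, from 1547 bases for Fcgr2b to 8133 bases for Stab2.

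**Figure D4:**
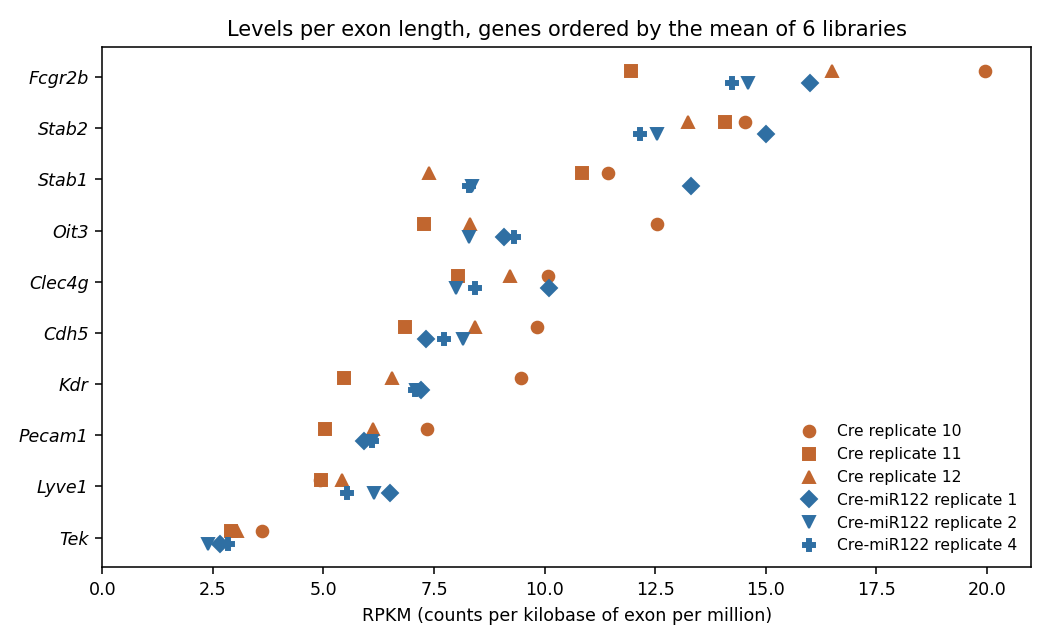
RPKM of each marker in the 6 libraries, genes ordered by their mean. Fcgr2b and Stab2 lie highest, Tek lies lowest, between 2.39 and 3.61 RPKM, and the ranges of most neighbouring genes overlap.

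The ligands and partners of the receptors came from a list of 11 genes of the VEGF and angiopoietin system, with 9 tested. Of these, 0 passed in either direction and 2 had an unadjusted p under 0.05, against 5.41% of all genes. Their median log2 fold change was -0.11. Vegfa, the ligand of Kdr that hepatocytes supply, was at 263, 337 and 283 CPM with Cre and at 258, 261 and 219 CPM with Cre-miR122. The groups did not overlap, though Cre replicate 10 and Cre-miR122 replicate 2 were close, and the log2 fold change was -0.26 (SE 0.11, edgeR adjusted p = 0.816), with -0.15 without Cre replicate 11. Nrp1, the VEGF co-receptor neuropilin-1, was at 69.1, 63.6 and 58.0 CPM with Cre and at 49.9, 56.8 and 54.4 CPM with Cre-miR122, a log2 difference of -0.24 (SE 0.092; edgeR adjusted p = 0.816). The ligands of Tek were scarce. Angpt1, the activating ligand, averaged 1.87 ± 0.295 CPM for Cre and 1.78 ± 0.254 for Cre-miR122, and Angpt2, the context-dependent antagonist, at 1.25 ± 0.193 and 1.25 ± 0.676 (SD, n = 3 each). Neither had a fold change that kept its sign when each library was left out, with ranges of -0.17 to 0.058 for Angpt1 and -0.54 to 0.22 for Angpt2 on the log2 scale.

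The remaining endothelial genes lay close to the markers. Of 13 further sinusoidal genes, 0 were called by edgeR and 0 had an unadjusted p under 0.05, with 4 above 0, 9 below and a median log2 fold change of -0.063. Mrc1 was at -0.10 (SE 0.10), and at 0.0086 once Cre replicate 10 was left out. Gata4 was at -0.034 (SE 0.14), with a range of -0.22 to 0.069 when each library was left out. The smallest p of the list belonged to the semaphorin gene Sema6a at -0.26 (SE 0.13), with -0.15 without Cre replicate 10. Of 22 pan-endothelial genes, 0 were called and 0 had an unadjusted p under 0.05, with 3 above 0, 19 below and a median of -0.11. Sox17, a transcription factor gene, was at -0.38 (SE 0.19), with -0.61 without Cre-miR122 replicate 1, and the BMP receptor gene Acvrl1 at -0.24 (SE 0.12). Tie1, the partner receptor of Tek, was at -0.13 (SE 0.12) and the VEGF receptor gene Flt1 at -0.074 (SE 0.19), and both turned without Cre replicate 10, to 0.0085 and 0.16. Without Cre replicate 10 the medians of these lists were 0.014 and 0.015, on the other side of 0. Of 8 partners of the endothelial junction, catenins and junctional adhesion molecules among them, 0 were called and 0 had an unadjusted p under 0.05, with a median of 0.062, which dropped to 0.0011 if Cre replicate 11 was omitted and to 0.018 if Cre-miR122 replicate 4 was. Catenins are expressed by hepatocytes too.

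**Figure D5:**
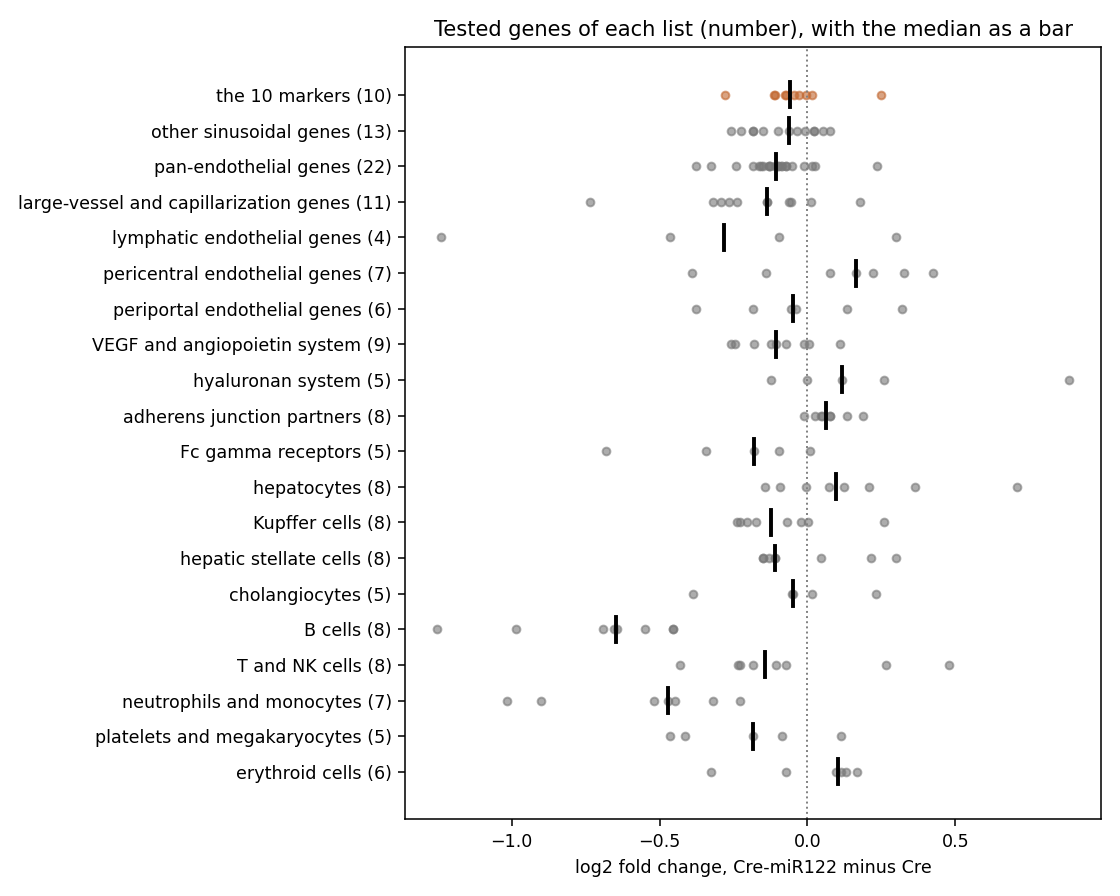
Log2 fold change (Cre-miR122 minus Cre) of every tested gene in each list, 1 point per gene, with the list's median as a bar. The 10 markers lie around 0 with a median of -0.059, and the median farthest from 0 is that of the B cell list at -0.65.

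In the marker lists of other liver cells no gene was called by edgeR. Hepatocyte markers had a median log2 fold change of 0.098 over 8 genes, Kupffer cells -0.12 over 8, stellate cells -0.11 over 8 and cholangiocytes -0.048 over 5. T and NK cells were at -0.14 over 8 genes, platelets at -0.19 over 5 and erythroid cells at 0.10 over 6. These 7 medians moved with single libraries. Leaving out each in turn gave 0.014 to 0.13 for hepatocytes, -0.21 to 0.0013 for Kupffer cells, -0.16 to -0.028 for stellate cells and -0.16 to 0.068 for cholangiocytes. The same range was -0.26 to -0.037 for T and NK cells, -0.41 to -0.092 for platelets and -0.17 (without Cre replicate 10) to 0.51 (without Cre replicate 12) for erythroid cells. The Kupffer cell median of 0.0013 was that without Cre-miR122 replicate 1. The B cell list had a median of -0.65 over 8 genes, 7 of them at an unadjusted p under 0.05. Neutrophils and monocytes had a median of -0.47 over 7 genes, 2 at an unadjusted p under 0.05. Among all genes tested this share was 5.41%, and the lists were chosen with earlier results of these data known. When each library was left out, the medians were -0.74 to -0.49 for B cells and -0.59 to -0.38 for neutrophils and monocytes. Among the other genes of the IgG receptor list, Fcgr4 had the smallest p, at -0.68 (SE 0.26, edgeR adjusted p = 0.816), and stood at -0.33 without Cre replicate 11. Fcgr3 was at -0.18 (SE 0.13), with -0.073 without Cre-miR122 replicate 1.

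The markers lie on 8 chromosomes of GRCm38, at the positions given in the count table. Stab1 spans chr14:31139017-31168651 and Stab2 chr10:86841210-87007942, each with 69 merged exons, and Oit3 shares chromosome 10 at 59422960 to 59441779. Lyve1 lies at chr7:110850607-110862953, Fcgr2b at chr1:170960558-170976071, Kdr at chr5:75933265-75979074, Tek at chr4:94739289-94874976 and Pecam1 at chr11:106654213-106750623. Clec4g (chr8:3707069-3721186) and Cdh5 (chr8:104101613-104144504) share chromosome 8. Exons of 3 markers overlap genes on the opposite strand, by 108 bases for Stab1 (Nt5dc2), 99 for Clec4g (Gm16553) and 27 for Oit3 (Gm36318). No source used here gives the strand setting of the counting, so reads in these stretches are uncertain.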

How the data were processed

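The deposited values are raw read counts, 1 row per gene. The submitters' processing notes name STAR 2.7.9a, featureCounts 2.0.1 and the build GRCm38. How strand and multiply matching reads were handled is not given in the sources used. Groups and replicates came from the sample titles. A further 5 columns of per-sample values match no sample of the series and were not used. The deposited Length column (other values, in bases) gave RPKM.

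Counts of all genes were fitted in R 4.3.3 by edgeR 4.0.16 (quasi-likelihood, TMM, filterByExpr), with group as the single term. Fold changes are Cre-miR122 over Cre, and two-sided p-values were adjusted by Benjamini-Hochberg over 14374 genes, with a threshold of 0.05. Standard errors come from the F statistic. Alternatives were DESeq2 1.42.0, limma-voom (limma 3.58.1), other scalings and filters, and leaving out libraries. The fits were tested on simulated data. All 10 markers are named. Of the other lists only some genes are named, for a small p or a role the text needs. The markers and lists were chosen with earlier results of these data known. Lists are described by counts and medians, without a test.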

Additional observations from a re-analysis of the deposited data

How the results depend on the processing

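No setting called any of the 10 markers at an adjusted p under 0.05 or 0.1. Over all genes the count of 0 became 2 without a filter on low counts and 3 with DESeq2, and with an unadjusted p under 0.05 it was 778 for all genes and 2 for the markers. The markers' median log2 fold change of -0.059 ran from -0.16 to 0.094 when each library was left out in turn. Signs that turned under other scalings or tools were those of Stab1 (-0.0030 with upper-quartile scaling, -0.014 with no scaling) and Kdr (0.033 with limma-voom), both near 0 in every such fit. With single libraries left out, Stab1 ran from -0.25 to 0.13, Clec4g from -0.15 to 0.034, Pecam1 from -0.15 to 0.12, Kdr from -0.17 to 0.25, Fcgr2b from -0.29 to 0.072, Oit3 from -0.23 to 0.19 and Cdh5 from -0.24 to 0.017. Lyve1, Tek and Stab2 kept their sign in every fit run. No paired analysis was possible because the groups share no replicate number. With 3 libraries per group, an exact permutation p cannot fall below 0.1.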

Other observations

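Endothelium near the central vein and near the portal vein differs in its genes, and lists for both were examined. Of 7 pericentral genes, 0 were called by edgeR and 0 had an unadjusted p under 0.05, with 5 above 0 and a median log2 fold change of 0.16. The Wnt ligand genes Wnt2 (0.32, SE 0.22) and Wnt9b (0.42, SE 0.53) lay above 0 and the fatty acid binding protein gene Fabp4 below it (-0.39, SE 0.20). Leaving out each library gave 0.17 to 0.56 for Wnt2, -0.19 (without Cre-miR122 replicate 1) to 1.06 (without Cre replicate 10) for Wnt9b, and -0.55 to -0.13 (without Cre replicate 10) for Fabp4. The median was 0.034 without Cre-miR122 replicate 1, the highest library of this list, and 0.065 without Cre replicate 11, the lowest. Of 6 periportal genes, 0 were called and 0 had an unadjusted p under 0.05, with a median of -0.048, the ephrin gene Efnb2 being at -0.38 (SE 0.29) and the Notch ligand gene Dll4 at 0.32 (SE 0.27). Msr1 had the smallest p of the periportal list, at -0.18 (SE 0.11). The list's median ran from -0.17 without Cre-miR122 replicate 2 to 0.016 without Cre-miR122 replicate 4, and Efnb2 was at -0.097 without Cre replicate 10. Dll4 moved from 0.71 without Cre replicate 10 to 0.079 without Cre replicate 11.

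Genes of larger vessels and of continuous capillaries had a median of -0.14 over 11 tested genes, with 2 above 0, 0 called and 0 at an unadjusted p under 0.05. That median ran from -0.33 without Cre-miR122 replicate 1 to -0.010 without Cre-miR122 replicate 2. Ly6a had the smallest p of the list, at -0.73 (SE 0.35). It ran from -1.10 without Cre-miR122 replicate 1 to -0.42 without Cre replicate 10. Vwf was at 0.18 (SE 0.18), with 0.013 without Cre-miR122 replicate 1, and Cd34 at -0.14 (SE 0.24), and Cd34 turned to 0.039 without Cre replicate 10. Of 5 genes of lymphatic endothelium, which shares Lyve1 as a marker, 4 were tested, 0 were called and 1 had an unadjusted p under 0.05, with 1 above 0, 3 below and a median of -0.28 (-0.58 without Cre-miR122 replicate 1 and -0.11 without Cre replicate 10). Ccl21a was at 0 counts in all 6 libraries and Pdpn, the podoplanin gene, at 14, 11 and 11 counts with Cre and 5, 6 and 4 with Cre-miR122 (log2 fold change -1.24, SE 0.36, edgeR adjusted p = 0.816). Reln, which stellate cells also express, was at 0.30 (SE 0.14), Prox1, which hepatocytes also express, at -0.098 (SE 0.13) and Mmrn1 at -0.47 (SE 0.39). In the hyaluronan list, whose receptors include Lyve1 and Stab2, 5 of 9 genes were tested, 0 were called and 1 had an unadjusted p under 0.05, with a median of 0.12. That gene was Hmmr (0.89, SE 0.29), a hyaluronan-binding protein of the mitotic spindle, and the list's median was -0.031 without Cre replicate 11, over the genes that pass the filter in that fit.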
